A study of Mus musculus with 200 samples.

Results

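The 10 genes described here encode proteins of autophagy and of the lysosome. They were chosen by symbol with earlier results of these data known, as were the lists of other pathway genes. Shares of them set beside all genes are therefore descriptions. Ulk1 starts the pathway, Gabarap, Gabarapl1, Gabarapl2, Map1lc3a and Map1lc3b form the Atg8 family, Sqstm1 is a cargo receptor, Tfeb is a transcription factor, and Lamp1 and Lamp2 are lysosomal membrane glycoproteins. They are 10 of 25229 symbols, and each was found in all 7 deposited tables. The series profiled polyadenylated RNA of mouse peri-implantation embryos and of embryoid bodies with Smart-seq2, which amplifies full-length cDNA, in 200 libraries of about 10 to 100 cells. It asked what the remodelling of bivalent chromatin, which carries activating and repressive histone methylation at once, contributes around implantation. Values are TPM, a measure of transcript abundance that is scaled by transcript length and by library, so that they can be set side by side between genes. Log2 changes are perturbed minus control on log2(TPM + 1), with standard errors, and adjusted p-values are Benjamini-Hochberg values from limma over all genes tested in a comparison.

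Embryos came from natural matings and were cultured in vitro in 3 dimensions through implantation. Libraries labelled epiblast (Epi), the tissue that gives rise to the body, made up all embryo groups but 2, which were primitive endoderm (PrE), the source of yolk sac endoderm. GSK-J4, which blocks enzymes that remove methyl groups from H3K27, was given to blastocysts at E3.5, with 3 treated and 3 wild-type Epi libraries at E4.5 and as many at E5.0. The dose of 50 µM is stated for the E5.0 design only. Suz12 and Eed, core subunits of the H3K27 methyltransferase PRC2, were knocked out together in Epi and in PrE at E5.0, with 3 libraries in each of 4 groups. Zbtb17, a zinc-finger transcription factor also called Miz-1, was knocked out in Epi at E4.5, with 3 libraries against 3 wild-type ones. These knockout libraries are titled as knockouts, but their treatment field names dTAG, a degrader of tagged proteins. Another 3 Epi libraries at E5.0 were labelled dTAG, with no genotype in the labels, and set against 3 wild-type libraries. Embryoid bodies (EB), in which embryonic stem cells differentiate as aggregates, were wild type or from 1 Zbtb17 knockout line (titled ZB11), with 2 libraries on each of days 0, 1, 2 and 3. A screen of 148 Epi libraries at E5.0 held wild-type controls and 40 knockouts in 10 batches, made by C-CRISPR, which cuts 1 gene with several guides. Batch 8 is titled 6.0 but labelled E5.0. Screen groups held 3 libraries, except the Ascl2 knockout and the batch 7 controls with 2. The labels state 3 biological replicates per group, but do not say whether libraries share an embryo, so the p-values measure the spread between libraries, which may be partly technical.

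Autophagy wraps cytoplasm in a double membrane and delivers it to the lysosome for breakdown. The Ulk1 kinase complex starts the process, Atg8 proteins are joined to lipid on the growing membrane, and Sqstm1 (p62) tethers ubiquitinated cargo to them while being degraded itself. Tfeb enters the nucleus when lysosomes are stressed or nutrients fall, and activates lysosomal and autophagy genes through a short E-box element. Primitive endoderm and the visceral endoderm derived from it are known for heavy endocytosis and a large lysosomal compartment, through which they feed the epiblast.

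The genes lie on 7 chromosomes of mm10. On GENCODE vM21 annotation, Gabarap spans chr11:69991143-69994951 on the plus strand, Lamp1 chr8:13159161-13175338 on the plus strand and Lamp2 chrX:38401357-38456454 on the minus strand. Sqstm1 spans chr11:50199366-50210827 on the minus strand and overlaps Mrnip on the other strand. Of the 50-base stretches of Gabarapl1 transcripts, 23.1% lie antisense in other genes, against 15.5% for Sqstm1 and 5.9% for Lamp1. For Gabarapl2, 12.2% of these stretches recur in pseudogene-like copies such as Gm3724 and Gm6051. For Map1lc3b 5.77% recur, in other genes that include Gm6055 and Nanog, which is among the epiblast markers used below. How strand and repeated sequence were handled in counting is not given in the sources used here, so values of these 5 genes carry that uncertainty.

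The promoters of 3 members that turn up together in several of the comparisons are shown, as the 250 bases before the RefSeq start site on GRCm38.p6, 5′ to 3′ on the gene's strand. Capitals mark CACGTG, the core of the element through which Tfeb is known to act, searched on both strands (it reads the same on each). The first window is chr8:13158911-13159160, the second chr11:69991120-69991369, both on the plus strand, and the third chrX:38456461-38456710 on the minus strand.
Lamp1: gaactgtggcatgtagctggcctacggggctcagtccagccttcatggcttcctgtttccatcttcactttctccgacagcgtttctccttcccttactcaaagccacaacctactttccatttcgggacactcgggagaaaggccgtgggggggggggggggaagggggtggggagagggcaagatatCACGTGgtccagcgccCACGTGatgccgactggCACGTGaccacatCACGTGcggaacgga
Gabarap: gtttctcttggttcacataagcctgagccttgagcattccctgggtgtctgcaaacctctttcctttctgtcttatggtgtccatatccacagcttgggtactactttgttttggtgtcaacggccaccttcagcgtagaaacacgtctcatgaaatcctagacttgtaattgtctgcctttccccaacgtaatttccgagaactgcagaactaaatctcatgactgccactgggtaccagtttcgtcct
Lamp2: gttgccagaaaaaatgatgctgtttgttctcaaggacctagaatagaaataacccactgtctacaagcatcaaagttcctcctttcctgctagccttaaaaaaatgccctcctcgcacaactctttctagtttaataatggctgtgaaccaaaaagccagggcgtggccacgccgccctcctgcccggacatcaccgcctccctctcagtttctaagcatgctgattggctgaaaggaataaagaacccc

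The Lamp1 window holds CACGTG 4 times, 61, 45, 28 and 15 bases before the start site. The hexamer was present in 1978 of 32851 promoters of this length (6.02%), and 4 or more copies in 7 of them (0.0213%). RefSeq had a promoter for 9 of the 10 members, and Lamp1 was the 1 with the hexamer. The GENCODE span of Gabarap starts at 69991143, so most of its window lies inside the annotated gene. A match describes letters only.

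Each table column summed to between 984852 and 993453 TPM, and libraries held 3986 to 13512 genes at 1 TPM or more; read counts were not used here, so the depth behind each value is unknown. Both groups of the Zbtb17 E4.5 table (3986 to 4952 genes; Gapdh 46.9 to 208 TPM) and the EB day 0 libraries (5970 to 6983 genes) stood apart from the rest. Targeted transcripts were lower in every Suz12 Eed double-knockout library than in every control (Eed in Epi 38.9 to 51.8 against 157 to 204 TPM). In the screen, the targeted transcript was lower in every knockout library in 16 of 40 checks, overlapped in 16 and was higher in all libraries in 8 (Nelfb, Snai1, Ascl2, Cxxc1, Myc, Bend3 in batch 7, Ovol2 and Zfp281). The 16 that overlapped were Ssrp1, Chd4, Gtf2b, Junb, Mbd3, Ets2, Lmo2, Atrx, Cbx2, Cbx7, Jarid2, Otx2, Kdm6b, Zfp57, Zbtb17 and Wt1. RNA need not fall with an edit, so the knockouts that overlapped or were higher are named here by their labels only. In libraries of many cells, fewer cells of a type and less RNA per cell cannot be told apart. Sums over fixed lists of 15 PrE markers, 14 trophectoderm and extraembryonic ectoderm (TE/ExE) markers and 10 epiblast markers are therefore given beside the main results.

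In wild-type E5.0 embryos, PrE and Epi held the 10 genes in different proportions. Gabarap was at 381, 385 and 329 TPM in the PrE libraries and at 31.3, 46.9 and 29.5 TPM in the Epi libraries. Map1lc3b, another Atg8 protein, was at 1331, 1491 and 1421 TPM in PrE and at 204, 173 and 235 TPM in Epi. Lamp2, an isoform of which is the receptor of chaperone-mediated autophagy, was at 66.1, 54.2 and 91 TPM in PrE and at 9.62, 10.2 and 14.9 TPM in Epi. No PrE library of these 3 genes overlapped an Epi library, and the log2 differences were 3.30 (SE 0.23, adjusted p = 2.31e-08), 2.80 (SE 0.14, adjusted p = 1.11e-09) and 2.60 (SE 0.26, adjusted p = 9.06e-07). PrE control replicates 1 and 2 correlated at 0.997 across genes and were averaged to 1 library in these fits. Lamp1 was higher in PrE as well, by 0.82 (SE 0.24, adjusted p = 0.00861), but not without PrE control replicate 1 (0.66, adjusted p = 0.11). Sqstm1 went the other way, at 90.5, 98.1 and 82.4 TPM in PrE and 147, 230 and 152 TPM in Epi, a log2 difference of -0.96 (SE 0.22, adjusted p = 0.00179). Gabarapl1 was also called lower (-0.88, SE 0.34, adjusted p = 0.0399), with overlapping groups, and was lost under 6 of 11 alternatives, among them without Epi control replicate 1 (adjusted p = 0.0713), Epi control replicate 2 (0.122) or PrE control replicate 1 (0.526). These are 4 higher and 2 lower calls of 10 members, in a comparison where 56.4% of 11748 genes were called (18.5% higher, 37.9% lower, median log2 difference -0.46).

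The order of levels was also different between the tissues. Map1lc3b was the highest member in all 3 PrE libraries, ahead of Gabarap and Lamp1, whose values overlapped each other. In control Epi, Map1lc3b, Gabarapl2, Lamp1 and Sqstm1 overlapped at the top, between 137 and 248 TPM. Ulk1 (0.572 to 2.42 TPM) and Tfeb (0.518 to 6.7 TPM) were lowest in both tissues. Among 115 other genes of the pathway that were tested, 53 were higher in PrE and 19 lower. They included 21 higher and 2 lower of 31 lysosomal hydrolases, such as Ctsl (1159 against 57.2 TPM) and Ctsc (575 against 29.3 TPM), both cathepsins. Subunits of the v-ATPase, the proton pump that acidifies lysosomes, were higher for 13 of 15. Of 10 other genes of the ULK and Beclin-1 complexes, 0 were higher and 3 lower, such as Atg101 (48.8 against 193 TPM).

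GSK-J4 at E5.0 was followed by higher levels of 7 of the 10 genes. Gabarap was at 412, 340 and 411 TPM in treated Epi libraries and at 37.4, 40.2 and 38.8 TPM in controls, a log2 change of 3.28 (SE 0.13, adjusted p = 4.56e-06). Lamp2 was at 129, 134 and 126 TPM against 18.9, 14.3 and 8.55 TPM, a change of 3.19 (SE 0.28, adjusted p = 0.000186). Lamp1 was at 636, 474 and 511 TPM against 155, 152 and 126 TPM, a change of 1.89 (SE 0.14, adjusted p = 9.27e-05). All treated libraries of these 3 genes lay above all controls. Map1lc3b rose from 176, 177 and 184 TPM to 404, 488 and 468 TPM (1.33, SE 0.10, adjusted p = 0.000102). Map1lc3a rose from 39.7, 41.9 and 54.9 TPM to 87.9, 153 and 144 TPM (1.45, SE 0.24, adjusted p = 0.00397). Sqstm1 rose from 205, 242 and 272 TPM to 451, 441 and 352 TPM (0.79, SE 0.14, adjusted p = 0.00513). Those 6 calls were kept under each of 10 alternatives. Gabarapl2 was called at 0.49 (SE 0.15, adjusted p = 0.0464), but 8 of 10 alternatives lost it, among them leaving out control replicate 1, 2 or 3 (adjusted p = 0.145, 0.160 and 0.137) or treated replicate 3 (0.0549). Gabarapl1 (0.09, SE 0.25, adjusted p = 0.84), Ulk1 (0.64, SE 0.55, adjusted p = 0.437) and Tfeb (0.17, SE 0.39, adjusted p = 0.788) overlapped between groups. Of 10681 genes tested, 28.3% were called and 16.6% were higher, and the median change was 0.12 over all genes and 1.06 over the 10.

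The same treated libraries held PrE markers. The summed level of the 15 was 2751 to 2916 TPM in treated Epi and 138 to 170 TPM in controls, and all 14 that could be tested were higher, with a median log2 change of 4.58. The TE/ExE sum was 3111 to 3252 against 4187 to 4446 TPM, and the epiblast sum 784 to 879 against 1812 to 1858 TPM (3 of 9 epiblast markers higher, 4 lower). The part of these markers' cells in the member changes was not tested. Across 113 other pathway genes tested, 75 were higher and 1 lower, with a median change of 1.31. The higher ones included 26 of 29 hydrolases, 15 of 15 v-ATPase subunits and 4 of 15 genes of Atg8 conjugation. Hexa, a subunit of the lysosomal hexosaminidase, was at a mean of 673 against 18.7 TPM (log2 change 5.14), Ctsl at 995 against 108 TPM (3.19) and Mcoln1, the lysosomal calcium channel, at 154 against 32.9 TPM (2.18). Flcn, which acts in nutrient sensing at the lysosome, was at 150 against 15.2 TPM (3.21). The 1 lower gene was Atg101, a subunit of the Ulk1 complex, at 160 against 221 TPM (-0.47).

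At E4.5, GSK-J4 was followed by 1 call among the 10, where 1.15% of 9982 genes were called. Gabarapl2 was at 1366, 1577 and 1353 TPM in treated libraries and at 843, 806 and 788 TPM in controls, a log2 change of 0.81 (SE 0.10, adjusted p = 0.00211). Sqstm1 was at 267, 244 and 184 TPM against 362, 490 and 343 TPM, without overlap, but did not pass (-0.78, SE 0.20, adjusted p = 0.116). Gabarap stood at 121, 86.1 and 133 TPM against 80.7, 74.5 and 102 TPM, and Lamp1 at 806, 659 and 725 TPM against 590, 536 and 740 TPM, both overlapping. The PrE marker sum was 2345 to 2543 TPM in treated and 1869 to 2088 TPM in control libraries. The TE/ExE sum was 1503 to 1560 against 2018 to 2083 TPM (4 of 12 markers lower, median log2 change -1.52), and the epiblast sum 1885 to 2000 against 2153 to 2428 TPM. The part of these markers' cells was not tested. Of 114 other pathway genes, 3 were higher and 0 lower. E4.5 and E5.0 came from separate tables, and the difference between their responses was not tested.

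**Figure D1:**
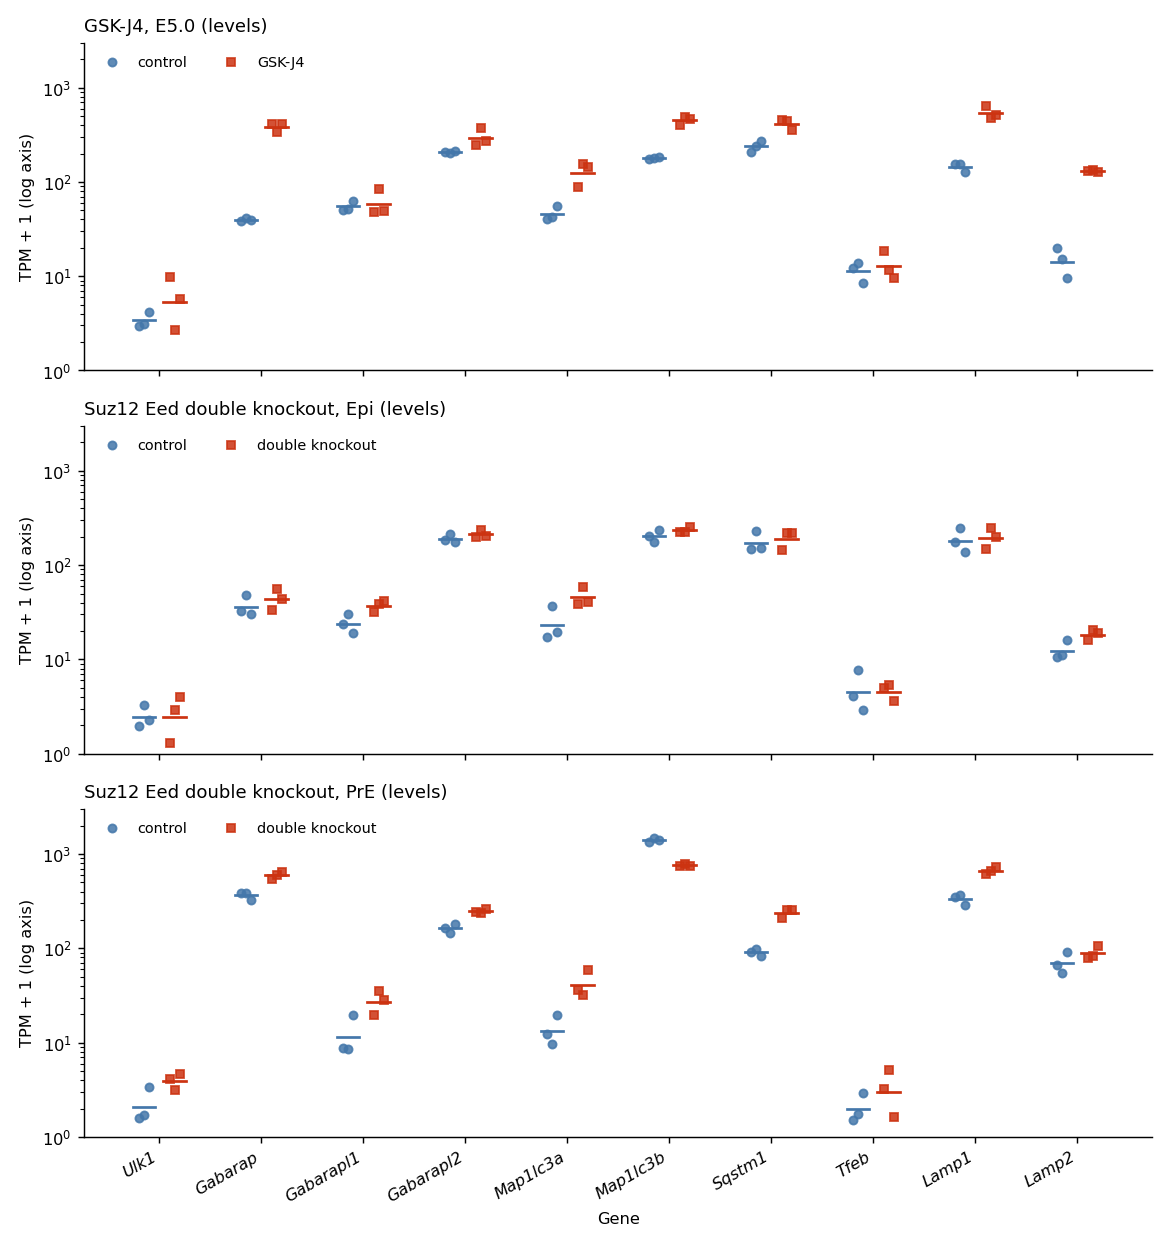
TPM + 1 of each member in each library on a log axis, for GSK-J4 at E5.0 and loss of Suz12 and Eed in Epi or PrE. Points are libraries and bars are geometric means of TPM + 1. Gabarap, Lamp1 and Lamp2 of the GSK-J4 libraries lie above all their controls, and Map1lc3b of the double-knockout PrE lies below its controls.

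Loss of Suz12 and Eed was followed by changes of 7 members in PrE, with Map1lc3b going against the other 6. Map1lc3b was at 750, 780 and 753 TPM in double-knockout PrE and at 1331, 1491 and 1421 TPM in control PrE, a log2 change of -0.89 (SE 0.14, adjusted p = 0.000419). Sqstm1 was at 211, 252 and 252 TPM against 90.5, 98.1 and 82.4 TPM, a change of 1.42 (SE 0.22, adjusted p = 0.000365). These 2 genes did not overlap between groups and were called under each of 11 alternatives. Lamp1 rose from 346, 368 and 285 TPM to 612, 661 and 734 TPM (1.06, SE 0.24, adjusted p = 0.00438). Gabarap rose from 381, 385 and 329 TPM to 544, 598 and 642 TPM (0.74, SE 0.23, adjusted p = 0.027). Map1lc3a rose from 11.3, 8.57 and 18.6 TPM to 35.2, 30.6 and 57.4 TPM (1.47, SE 0.36, adjusted p = 0.00826). Gabarapl1 (1.05, SE 0.34, adjusted p = 0.0346) and Gabarapl2 (0.57, SE 0.15, adjusted p = 0.0113) were called higher as well. With 1 PrE control library left, the spread is taken from the other groups of the fit, and the lone library is assumed to vary like them. Without PrE control replicate 1, which stands for the averaged pair, 3 calls were left (2 higher and 1 lower). Gabarap (adjusted p = 0.0727), Gabarapl1 (0.396), Gabarapl2 (0.091) and Map1lc3a (0.128) were then not called. Without PrE control replicate 3, Gabarap (adjusted p = 0.21) and Lamp1 (0.0912) were not, and without knockout replicate 2 or 3 neither Gabarap (0.0628 and 0.0824) nor Gabarapl1 (0.117 and 0.0844) was. Lamp2 was at 77.5, 82.3 and 104 TPM against 66.1, 54.2 and 91 TPM and did not pass, nor did Ulk1 and Tfeb. Of 11354 genes, 26.6% were called, 21.4% higher and 5.18% lower, with a median change of 0.40 over all genes and 0.73 over the 10.

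In double-knockout Epi none of the 10 genes passed, where 9.13% of 11250 genes did (4.48% higher, 4.65% lower). Unadjusted, 2 members (Map1lc3a and Lamp2) had a p under 0.05 in limma. Map1lc3a was at 38, 58.3 and 40.1 TPM against 16.3, 35.8 and 18.8 TPM (0.97, SE 0.33, adjusted p = 0.0745), without overlap. Lamp2 was at 14.9, 19.3 and 17.9 TPM against 9.62, 10.2 and 14.9 TPM (0.56, SE 0.23, adjusted p = 0.142). Map1lc3b, at 226, 223 and 254 TPM against 204, 173 and 235 TPM, overlapped between groups. Libraries of equal number deviated together in this comparison (r 0.101 to 0.238). Gabarap, Map1lc3a, Map1lc3b and Lamp2 were among the members higher in 3 of 3 pairs of equal number. The share of all genes higher in 3 of 3 pairs is not given here. With the number as a replicate block 0 members passed. The difference between the PrE and the Epi effect was tested by an interaction term and passed for Map1lc3b (-1.10, SE 0.19, adjusted p = 0.00144), Sqstm1 (1.28, SE 0.29, adjusted p = 0.00795) and Lamp1 (0.97, SE 0.32, adjusted p = 0.0446). For Map1lc3b it held under 17 of 17 alternatives, for Sqstm1 under 16, all but the fit without PrE control replicate 3 (adjusted p = 0.0598), and for Lamp1 under 4. Lamp1 lost its call without any 1 of 9 of the 11 libraries of that fit, with adjusted p from 0.0589 to 0.219. Of 13172 genes, 19.1% passed that test (15% above and 4.16% below 0), with a median difference of 0.45.

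Markers of other tissues moved in both tissues. In PrE, the PrE sum was 5245 to 5997 TPM in the double knockout and 3937 to 4416 TPM in controls, and the TE/ExE sum 1918 to 2036 against 496 to 762 TPM. In Epi, the TE/ExE sum was 5181 to 6164 against 1599 to 1735 TPM and the epiblast sum 1056 to 1308 against 1948 to 2581 TPM. Their part in the member values was not tested. Among other pathway genes, 30 of 120 tested rose in PrE and 2 fell. Mcoln1 was at 63.6 against 14.3 TPM (2.18), while Gm2a, an activator of ganglioside breakdown, was at 56.0 against 138 TPM (-1.30). In Epi 12 of 113 rose and 4 fell. There Gm2a was at 129 against 55.5 TPM (1.21) and Bnip3, a receptor for the removal of mitochondria, at 87.3 against 188 TPM (-1.09).

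Zbtb17 was perturbed in 4 systems, and Lamp1 was called in 6 of the 7 comparisons, each time higher. Of these calls, 4 came from days of the 1 EB line, where 36.5% to 59.8% of all genes were called. They include day 0, whose libraries stood apart and where 47.8% of genes were higher. The dTAG and screen comparisons had 11.7% and 30.4% of genes called. At E4.5 Lamp1 went the other way without a call. In the dTAG table Lamp1 was at 303, 334 and 373 TPM in treated libraries and at 184, 182 and 157 TPM in controls (0.94, SE 0.11, adjusted p = 0.000461), and the call held under 9 of 9 alternatives. Sqstm1 was at 343, 348 and 306 TPM against 201, 201 and 264 TPM (0.59, SE 0.12, adjusted p = 0.0107). Map1lc3b was lower, at 266, 249 and 253 TPM against 322, 386 and 332 TPM (-0.43, SE 0.09, adjusted p = 0.0147). Without control replicate 56, Sqstm1 (adjusted p = 0.0505) and Map1lc3b (0.0635) missed the threshold, as did Map1lc3b without treated replicate 3 (0.0573). Gabarapl2 was called at 0.37 (SE 0.10, adjusted p = 0.0353), but under 2 of 9 alternatives only, and in no fit that left a library out (adjusted p 0.0621 to 0.113). Tfeb, at 6.72, 3.49 and 5.99 TPM against 0.959, 0.706 and 1.85 TPM, did not overlap but missed the threshold (1.56, SE 0.46, adjusted p = 0.056). These 4 calls stood in a comparison with 11.7% of 10658 genes called (7.2% higher, 4.49% lower). Zbtb17 RNA itself was at 5.77 to 6.94 TPM in treated and 1.67 to 5.20 TPM in control libraries; a degrader acts on the protein. The PrE sum was 502 to 527 TPM in dTAG libraries and 91.3 to 95.0 TPM in controls, the TE/ExE sum 3672 to 4079 against 2745 to 2968 TPM, and the epiblast sum 1627 to 1758 against 1611 to 1652 TPM; their part was not tested. Of 111 other pathway genes, 25 were higher and 4 lower, with Ctsl at 209 against 59.4 TPM (1.80) and Rragd, a GTPase of nutrient sensing, at 3.78 against 12.2 TPM (-1.48).

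At E4.5, none of the 6 members that could be tested passed after Zbtb17 knockout, where 0.131% of 4576 genes did, all higher. Unadjusted, Lamp2 was the 1 member with a p under 0.05 in limma. Lamp2 was at 40.7, 73.3 and 11.5 TPM in knockout libraries and at 0.0731, 0.226 and 0 TPM in controls, without overlap (4.95, SE 1.20, adjusted p = 0.236). Lamp2 reached the minimum of 1 TPM in the knockout libraries only. Its p-value and its lack of overlap are thus not independent of the filter, and nothing is drawn from them. Lamp1 was at 37.3, 10.8 and 36.8 TPM against 50.8, 84.8 and 153 TPM (-1.78, SE 0.79, adjusted p = 0.633). Gabarap was listed at 0 in 2 of 3 control libraries and in 1 knockout library. Gabarapl1, Map1lc3a, Ulk1 and Tfeb did not reach the minimum of 1 TPM in 3 libraries. The targeted transcript was at 0 in the controls and 0 to 1.12 TPM in the knockout, so it checks nothing here. The TE/ExE sum was 591 to 759 TPM in the knockout and 60.3 to 243 TPM in controls, the PrE sum 119 to 233 against 207 to 273 TPM and the epiblast sum 278 to 451 against 253 to 676 TPM. Pou5f1, a core pluripotency gene and 1 of the epiblast markers, was at 0 TPM in every library but control replicate 3 (38.1 TPM). The E4.5 libraries of the GSK-J4 design held it at 446 to 660 TPM. The part of these markers' cells was not tested.

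In the screen, the Zbtb17 knockout libraries were spread widely, and Zbtb17 RNA overlapped between groups (0.0122 to 14.2 against 0.312 to 4.21 TPM). Screen fits named as without a replicate left that number out of all knockouts, or of all controls, at once. Lamp1 was at 365 to 811 TPM against 192 to 269 TPM (1.30, adjusted p = 4.64e-06), a call kept under 14 of 14 alternatives, and Lamp2 at 36.8 to 76.1 against 17.8 to 24.9 TPM (1.30). Map1lc3a, Map1lc3b and Sqstm1 were called higher with overlapping groups, and Gabarap (0.67, adjusted p = 0.0426) under 5 of 14 alternatives. Without knockout replicate 3, the changes of Gabarap (0.38, adjusted p = 0.393) and Map1lc3a (0.75, adjusted p = 0.108) were smaller and not called, and Lamp2 was not called without knockout replicate 2 (1.02, adjusted p = 0.155). Gabarap was not called without control replicate 1, 2 or 3 either (adjusted p 0.0513 to 0.102). Fitted without the other batches, Lamp1 kept its call, while Gabarap (adjusted p = 0.236), Map1lc3a (0.247), Map1lc3b (0.211), Sqstm1 (0.126) and Lamp2 (0.0787) lost theirs. Here 30.4% of genes were called. The PrE sum was 591 to 981 against 545 to 627 TPM the TE/ExE sum 9316 to 12783 against 3471 to 4261 TPM and the epiblast sum 710 to 954 against 873 to 1055 TPM; their part was not tested.

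In embryoid bodies, Gabarapl2 and Tfeb were higher in the knockout than in the wild type on days 1, 2 and 3. Wild-type Gabarapl2 was at 283 and 283 TPM on day 1, 86.6 and 77.9 TPM on day 2 and 63.8 and 61.8 TPM on day 3. Knockout Gabarapl2 was at 325 and 315, 174 and 178, and 185 and 181 TPM on those days. The log2 change was 0.18 on day 1, 1.09 on day 2 (SE 0.05, adjusted p = 6.2e-09) and 1.53 on day 3 (SE 0.05, adjusted p = 1.48e-10). Tfeb was at 7.01 and 5.16, 4.65 and 6.19, and 3.36 and 3.3 TPM in the wild type and at 11.1 and 11.8, 13.3 and 14, and 11 and 10.4 TPM in the knockout. Its changes were 0.82 (adjusted p = 0.00187), 1.20 (adjusted p = 9.37e-05) and 1.44 (SE 0.16, adjusted p = 1.3e-05), the first lost under quantile normalization (0.68, adjusted p = 0.0547). The effects of days 1, 2 and 3 were not tested against each other. Neither gene overlapped between the genotypes on these days. Map1lc3a was higher in the knockout on days 0 to 3 by 0.84, 0.89, 0.68 and 0.65 (SE 0.09), Ulk1 by 0.53, 0.45, 0.49 and 0.43 (SE 0.08) and Lamp1 by 0.73, 0.42, 0.28 and 0.20 (SE 0.04). Sqstm1 was higher on days 0 to 2 (0.67, 0.49 and 0.52, SE 0.06) and did not pass on day 3, at 208 and 211 against 185 and 197 TPM. Lamp2 passed on day 2 (0.60, SE 0.07), at 31 and 30.4 against 19 and 20.9 TPM, but not on the other days.

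Calls were frequent in this table, so single small changes weigh little. On days 0, 1, 2 and 3 the members had 7 of 9, 8 of 10, 9 of 10 and 6 of 10 calls, where 59.8%, 36.5%, 42.8% and 55.1% of all genes were called. Higher calls were 6, 8, 9 and 6 of these, where 47.8%, 16.5%, 17.9% and 20.9% of all genes were higher, and 12%, 20%, 24.9% and 34.3% lower. A replicate was left out on all days of a genotype at once, and the lone library of each of those groups is assumed to vary like the other groups. On day 0, Gabarapl2 was lost without either knockout library (adjusted p = 0.131 and 0.165) and Map1lc3b without knockout replicate 2 (0.0711). On day 1, Gabarap was lost without control replicate 1 or 2 or knockout replicate 2 (0.213, 0.0681 and 0.327), Gabarapl1 without control replicate 1 or 2 (0.105 and 0.069), and Gabarapl2 without either knockout library (0.139 and 0.0715). On day 3, Map1lc3b was lost without control replicate 1 (0.0634) or either knockout library (0.0848 and 0.0884). All member calls were higher except Map1lc3b on day 0 (-0.26, adjusted p = 0.00277). The pairs of libraries were about as alike (r at least 0.993 in each group) as the averaged PrE pair, and were kept as 2 libraries because none stood apart. All knockout libraries came from 1 line label, so line and genotype cannot be told apart. Zbtb17 RNA was at 9.89 to 10.1 TPM in the knockout and 20.8 to 23.4 TPM in the wild type on day 1. The TE/ExE sum was higher in the knockout on days 1 (411 to 432 against 133 to 138 TPM), 2 (374 to 375 against 98.2 to 110 TPM) and 3 (322 to 331 against 249 to 252 TPM). Of the PrE markers tested, 7 of 9, 11 of 15 and 8 of 14 were lower on days 1, 2 and 3 and 1, 2 and 3 higher, although their sum was not lower (520 to 521 against 491 to 505, 368 to 377 against 245 to 251, and 276 to 278 against 257 to 271 TPM). Of 5 stroma and decidua markers tested, 4 were lower on day 1, and 5 were higher on day 2 (median log2 change 1.74) and on day 3 (2.15). The epiblast sum was 5009 to 5014 against 5271 to 5359, 4130 to 4190 against 4742 to 4765, and 4360 to 4370 against 4707 to 4797 TPM. The part of these markers' cells was not tested. Of 122 other pathway genes, 26 rose and 18 fell on day 1, 34 rose and 16 fell on day 2, and 27 rose and 34 fell on day 3. On day 3 Bnip3 was at 17.4 against 91.6 TPM (-2.33), and Glb1, lysosomal beta-galactosidase, at 32.3 against 14.6 TPM (1.10).

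**Figure D2:**
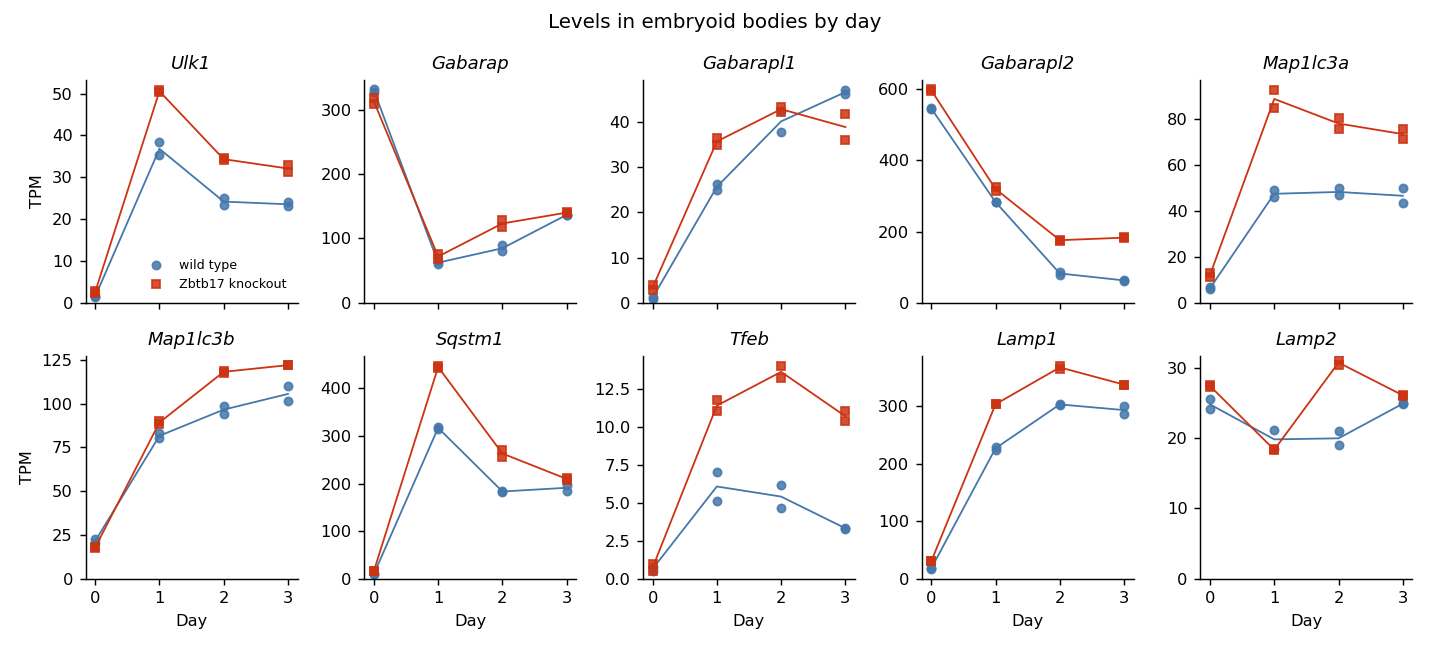
TPM of each member in embryoid bodies by day, with points for libraries and lines for the means of 2 libraries, in wild type and Zbtb17 knockout. Gabarapl2 of the knockout stays at 174 to 185 TPM on days 2 and 3 while the wild type reaches 61.8 to 86.6 TPM.

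Levels against day 0 carry no reading for single genes. On day 0, wild-type Gabarap was at 327 and 333 TPM, Gabarapl2 at 545 and 548 TPM, Sqstm1 at 10.4 and 9.31 TPM and Lamp1 at 17.3 and 18.9 TPM. From day 1 on, Gabarap was at 60.3 to 137 TPM, Sqstm1 at 182 to 320 TPM and Lamp1 at 225 to 304 TPM. But 97.6%, 97.5% and 97.7% of genes were called against day 0 on days 1, 2 and 3, 91.4%, 90.7% and 90.4% higher and 6.24%, 6.77% and 7.31% lower, with a median log2 change of 2.80 over all genes on each day. The day 0 libraries held Gapdh at 75.1 to 144 TPM, against 4044 to 6898 TPM later, and Pou5f1, a core pluripotency gene of embryonic stem cells, at 13.4 to 21.5 against 1719 to 2443 TPM. Rps29, a ribosomal protein gene, was at 56462 to 62562 TPM on day 0 and 4463 to 5702 TPM later.

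Whether the knockout effect on a later day differed from that on day 0 was tested by interaction terms. On day 1, 5 members passed (3 above and 2 below 0), where 36.3% of genes did (8.3% above, 28% below). That count fell to 0 without knockout replicate 2, to 3 without control replicate 1 or 2, and to 2 with only its groups fitted. On day 2, 7 passed (5 above, 2 below), where 44.8% of genes did (11.7% above, 33.1% below). On day 3, 6 passed (3 above, 3 below), where 53.4% of genes did (14.1% above, 39.3% below). Tfeb had 1.38 and Gabarapl2 1.40 as the difference on day 3, while Gabarapl1, at 1.23 and 0.926 TPM in the wild type and 2.73 and 3.94 TPM in the knockout on day 0, had -1.31.

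**Figure D3:**
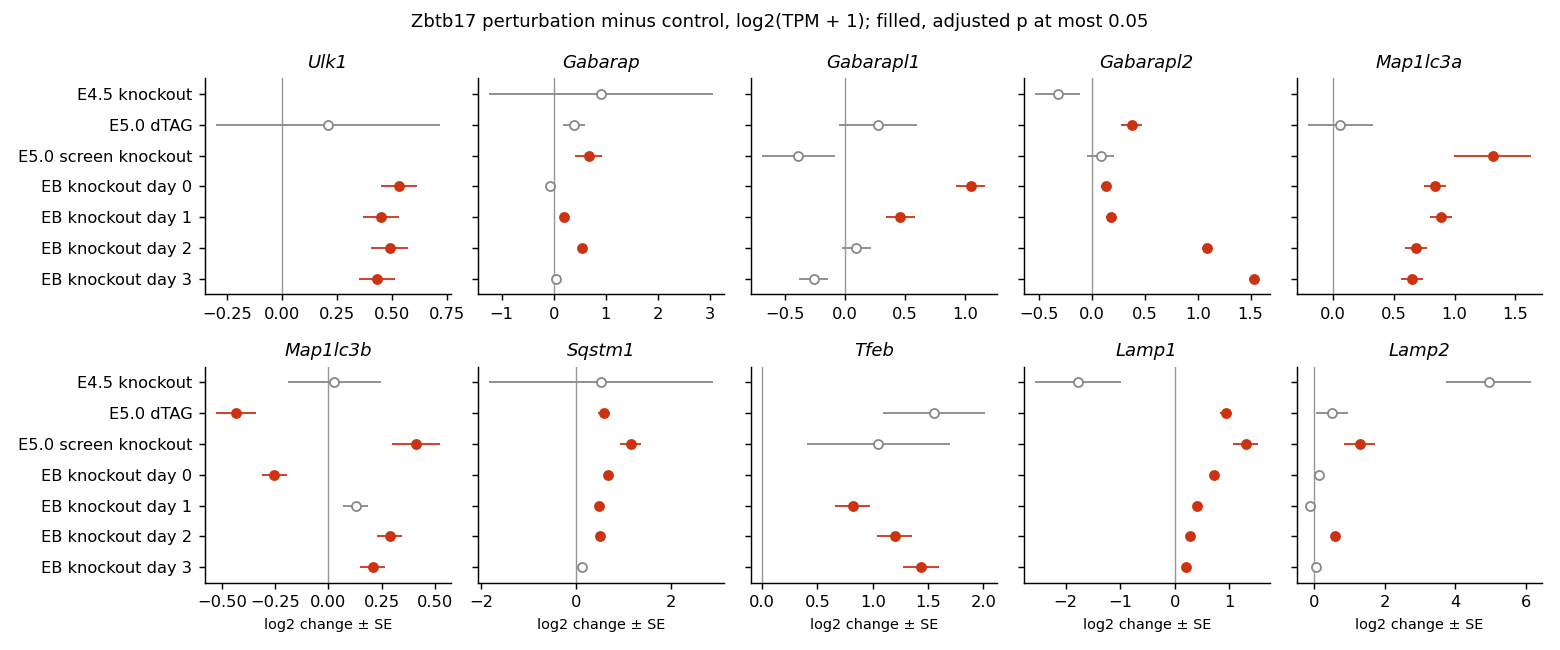
Log2 change ± SE of each member in the 7 Zbtb17 comparisons, perturbed minus control on log2(TPM + 1). Filled points passed at an adjusted p of 0.05, and Lamp1 is filled and above 0 in all but the E4.5 knockout.

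Across the screen, 82 of 388 pairs of a knockout and a member were called (21.1%), where 10.1% of all pairs of a knockout and a gene were. Higher calls made up 66 pairs (17%, against 5.04% of all) and lower calls 16 (4.12%, against 5.09% of all). Knockouts of 1 batch share their controls, and members share libraries, so these pairs are not independent. Of 39 knockouts tested, 28 had a member called, 21 of them only higher ones, 4 only lower ones and 3 both. Aurkb was not tested, because its 3 libraries were nearly identical (r 0.999) and were averaged. Among the members, Gabarapl2 was called most often (15 higher, 2 lower), followed by Map1lc3b (12 higher, 0 lower), Lamp2 (11 and 0), Gabarap (9 and 1), Sqstm1 and Lamp1 (7 and 3 each), Map1lc3a (4 and 2) and Gabarapl1 (1 and 4). Tfeb was called lower in 1 of 38 knockouts and Ulk1 in 0 of 38.

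Gabarap, Lamp1 and Lamp2 were all higher in 6 knockouts, those of Nelfb, Chd4, Gtf2b, Mcrs1, Cxxc1 and Zbtb17. For Zbtb17, Gabarap and Lamp2 lost their calls when batch 6 was fitted alone (adjusted p = 0.236 and 0.0787). In libraries labelled Chd4 knockout, for the ATPase of the NuRD complex, Gabarap was at 138 to 178 TPM against 36.1 to 40.7 TPM in the batch controls (2.05, adjusted p = 6.5e-10). There Lamp2 was at 25.3 to 33.7 against 5.42 to 11.1 TPM (1.83) and Lamp1 at 278 to 320 against 106 to 180 TPM (1.10), with 7.47% of genes called. The libraries labelled Nelfb knockout, for a subunit of the polymerase-pausing factor NELF, had Gabarap at 148 to 162 against 46.2 to 53.5 TPM (1.64, adjusted p = 3.21e-07). Their Map1lc3b was at 285 to 307 against 111 to 127 TPM (1.31, adjusted p = 1.63e-18), the largest change of Map1lc3b in the screen, with 21.4% of genes called. Libraries labelled Gtf2b knockout, for the general transcription factor TFIIB, had Gabarapl2 at 637 to 728 against 161 to 214 TPM (1.83, adjusted p = 3.26e-23). Their Lamp2 was at 37.6 to 44.8 against 5.42 to 11.1 TPM (2.32, adjusted p = 1.6e-05). Here 15.4% of genes were called. Libraries labelled Cxxc1 knockout, for a CpG-binding subunit of an H3K4 methyltransferase, had Gabarapl2 at 954 to 1041 against 231 to 285 TPM (1.93, adjusted p = 9.2e-25). In the Cxxc1 comparison 21.4% of genes were called, 12.3% higher. Mcrs1 knockout had Lamp1 at 521 to 571 against 208 to 243 TPM (1.22), with 17% of genes called. None of these groups overlapped. Some of the other calls were lost when 1 replicate number was left out. Lamp1 of Nelfb missed the threshold without control replicate 1 (adjusted p = 0.0572) or knockout replicate 3 (0.0743), and Lamp1 of Cxxc1 without control replicate 1 (0.0829) or knockout replicate 3 (0.115). Gabarap of Cxxc1 missed it without knockout replicate 1 (adjusted p = 0.0563), and Lamp2 of Mcrs1 without control replicate 2 (0.0578).

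The PrE marker sum was higher in every knockout library than in every control in 20 of 39 knockouts. It was so in 8 of the 9 knockouts with Gabarap higher, 8 of the 11 with Lamp2 higher, 6 of the 7 with Lamp1 higher, 13 of the 15 with Gabarapl2 higher, 9 of the 12 with Map1lc3b higher and 4 of the 7 with Sqstm1 higher. The sum was lower in all libraries of 8 of 39 knockouts. These include 2 with Map1lc3b higher, 1 with Lamp2 higher and 1 with Sqstm1 higher. The PrE sum was at 2066 to 2161 against 334 to 386 TPM for Nelfb. It was at 1234 to 1292 against 113 to 129 TPM for Chd4, and at 529 to 579 TPM for Gtf2b in the same batch. Mcrs1 had 2377 to 2613 TPM and Cxxc1 858 to 974 TPM, against 286 to 303 TPM in their shared controls. The TE/ExE sum was higher in all libraries of 27 of 39 knockouts. It was so in 8 of the 9 with Gabarap higher, 9 of the 11 with Lamp2, 6 of the 7 with Lamp1, 11 of the 15 with Gabarapl2, 8 of the 12 with Map1lc3b and 7 of the 7 with Sqstm1 higher. The TE/ExE sum was lower in all libraries of 10 knockouts. These include 4 with Gabarapl2 higher, 4 with Map1lc3b, 2 with Lamp2, 1 with Gabarap and 1 with Lamp1 higher. The epiblast sum was higher in all libraries of 9 knockouts and lower in all of 13. Marker sums and members share these libraries, and the part of the marker cells was not tested. In libraries labelled Atrx knockout, for a chromatin remodeller, the PrE sum was at 2080 to 2148 against 1197 to 1297 TPM. Only Map1lc3b was called there (3.46% of genes were), and not without knockout replicate 1 (adjusted p = 0.057). Gabarap, at 333 to 380 against 249 to 291 TPM, did not overlap between groups but was not called. The same held for Lamp2, at 66.2 to 95.8 against 45.8 to 56.2 TPM.

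**Figure D4:**
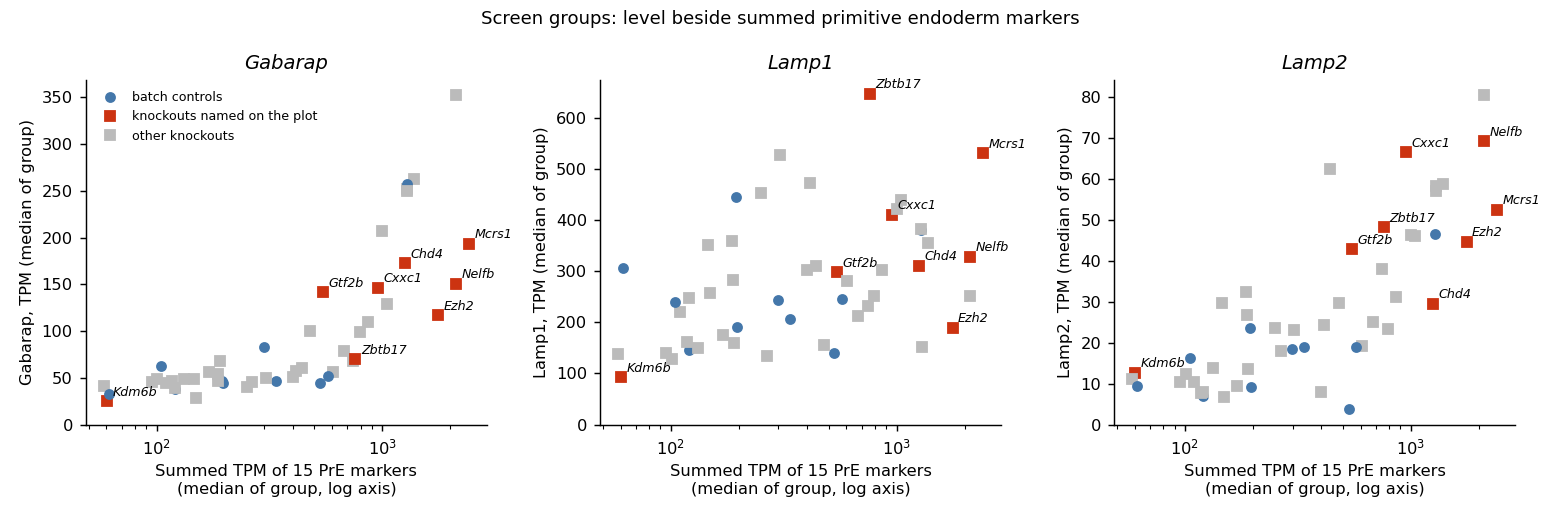
Median TPM of Gabarap, Lamp1 and Lamp2 in each screen group (y axis, linear) against the group's median summed TPM of 15 PrE markers (x axis, log scale). Named knockouts with higher Gabarap, such as Nelfb and Mcrs1, lie to the right of their controls, and the batch 3 controls, with PrE sums of 1197 to 1297 TPM, are the highest control point of Gabarap.

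Gabarapl2 was the only member called higher in 6 knockouts, those of Fos, Mbd3, Ascl2, Elf5, Lmo2 and Cbx7. Over the 6, 1.39%, 1.32%, 6.91%, 25%, 5.11% and 0.959% of all genes were called, in that order. The Mbd3, Ascl2, Lmo2 and Cbx7 knockouts are named by their labels. For Mbd3 it did not pass without control replicate 1 (adjusted p = 0.391), knockout replicate 1 (0.0842) or knockout replicate 2 (0.301), and for Cbx7 not without control replicate 1 (0.0631), knockout replicate 1 (0.124) or knockout replicate 2 (0.072). In the Hdac1 Hdac3 double knockout, of genes for histone deacetylases, Gabarapl2 was at 520 to 548 against 161 to 214 TPM (1.49) beside higher Gabarap (1.06) and Lamp2 (1.48), with 7.55% of genes called. Without knockout replicate 2, Gabarap (adjusted p = 0.0525) and Lamp2 (0.148) were not called, nor was Lamp2 without control replicate 3 (0.122) or knockout replicate 3 (0.104). Sqstm1 had its largest rise in libraries labelled Ets2 knockout, for a transcription factor of trophoblast, at 344 to 525 against 156 to 186 TPM (1.36, adjusted p = 4.94e-07). Gabarapl1 was higher there (106 to 154 against 48.3 to 68.4 TPM, 1.03), its only higher call, and 23.4% of genes were called. The Suz12 knockout of batch 2 had Map1lc3a (1.25), Map1lc3b (0.54), Sqstm1 (0.79) and Lamp2 (1.71) higher, with 21.9% of genes called and a TE/ExE sum of 12953 to 13469 against 3996 to 4233 TPM. In the separate table of the Suz12 Eed double knockout no member passed in Epi, and Map1lc3a was higher and Map1lc3b lower in PrE; the difference between the tables was not tested.

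The 16 lower calls came from 7 knockout groups. Libraries labelled Kdm6b knockout, for an H3K27 demethylase, had Sqstm1 at 69.2 to 119 against 175 to 314 TPM (-1.49, adjusted p = 4.66e-08). Their Gabarap was at 24.2 to 26.4 against 41.6 to 69 TPM (-1.13, adjusted p = 0.000501). Map1lc3a was lower (-1.01), but was not called without control replicate 3 (adjusted p = 0.128) or knockout replicate 3 (0.0782). Lamp1 was called lower too (-1.04) with overlapping groups. With quantile normalization, Gabarap (-0.65, adjusted p = 0.0714) and Map1lc3a (-0.53, adjusted p = 0.242) lost their calls. The PrE sum was at 50.0 to 60.4 against 78.7 to 126 TPM, the TE/ExE sum at 1303 to 1340 against 2118 to 2451 TPM and the epiblast sum at 771 to 842 against 1265 to 1537 TPM. In this knockout 22.7% of genes were called. Ezh2 knockout, which removes the catalytic subunit of PRC2, shares those controls and had Gabarap at 89.9 to 141 TPM (1.00), with a PrE sum of 1769 to 1834 TPM and 26.9% of genes called. This Gabarap call was lost when the compared groups were fitted alone (adjusted p = 0.0807), as were those of Gabarapl2 (0.329) and Map1lc3b (0.135). Kdm6a knockout had Sqstm1 at 311 to 352 against 128 to 186 TPM (1.05) and Gabarapl2 lower (-0.41), with 9.29% of genes called. This Gabarapl2 call was lost in 5 of 6 fits without 1 replicate number (adjusted p 0.0531 to 0.127). GSK-J4 inhibits both demethylases, but its libraries are in another table, so its values are set beside these without a test. Libraries labelled Cbx7 knockout, for a PRC1 subunit, had Lamp1 at 122 to 192 against 379 to 389 TPM (-1.32, adjusted p = 6.51e-05), with 0.959% of genes called. Their TE/ExE sum was 2562 to 2771 against 2803 to 2866 TPM and their epiblast sum 443 to 466 against 486 to 511 TPM. Lamp1 also varied between libraries of other knockouts of that batch, without a call. It was at 185 to 570 TPM for Atrx, 236 to 394 TPM for Rnf2, 246 to 361 TPM for Cbx2 and 379 to 453 TPM for Jarid2. Bend3 knockout in batch 8 had Lamp1 at 133 to 142 against 296 to 361 TPM (-1.21, adjusted p = 2.19e-05), Gabarapl1 at 24.4 to 28.5 against 73.2 to 89 TPM (-1.61) and Sqstm1 at 111 to 117 against 166 to 336 TPM (-1.12). These 3 calls held under 14 of 14 alternatives, and 28.6% of genes were called. The TE/ExE sum was 190 to 218 against 369 to 551 TPM, and the epiblast sum 2480 to 2976 against 3107 to 3395 TPM. The part of the marker cells in these lower values was not tested. Libraries labelled Zfp57 knockout had lower Gabarapl1 (-1.18, and -0.79 with quantile normalization, adjusted p = 0.0565) and Sqstm1 (-1.12), with 16.8% of genes called. Smad2 knockout had lower Gabarapl1 (-1.07) and Gabarapl2 (-0.64), with 2.27% called. Its Gabarapl1 call was lost in 5 of 6 fits without 1 replicate number (adjusted p 0.0719 to 0.232).

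Libraries labelled Bend3 knockout in batch 7 had Gabarapl1 at 5.12 to 24.7 against 52.5 to 75.3 TPM (-2.59) and Tfeb at 0.256 to 9.31 against 25.7 to 28.5 TPM (-2.88), the only Tfeb call of the screen. Map1lc3a was called lower as well, and Map1lc3b and Lamp2 higher. In this comparison 38.8% of genes were called, 10.6% higher and 28.2% lower. Batch 7 had 2 controls and held the ribosomal RNA precursor Rn45s at 186888 to 316027 TPM, against 506 to 19557 TPM in other batches, and its member calls were lost when batch 7 was fitted alone. Without that batch the screen had 77 member calls.

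**Figure D5:**
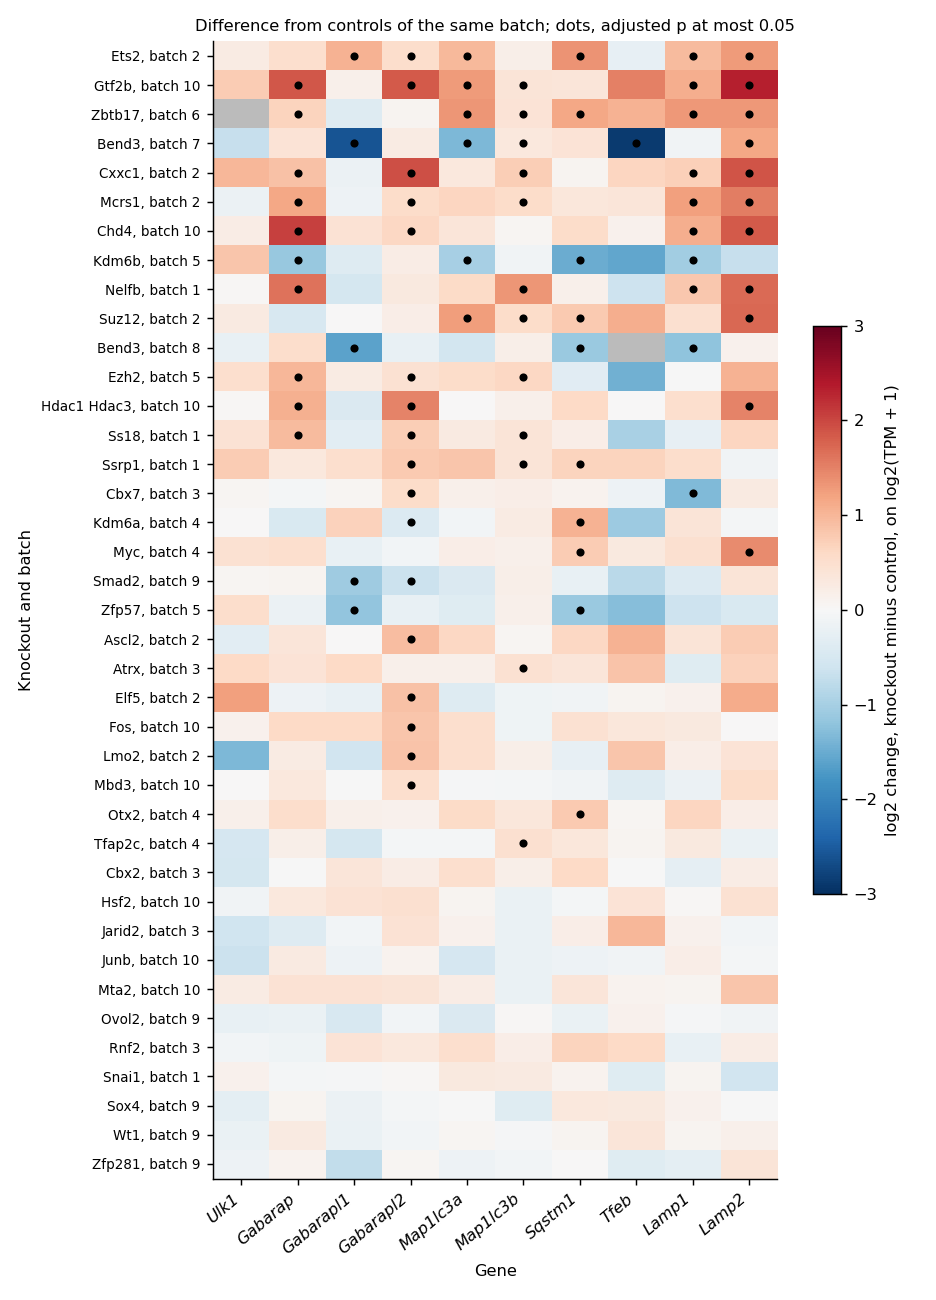
Log2 change of each member (columns) in each of 39 screen knockouts (rows), knockout minus the controls of its batch on log2(TPM + 1), with dots where adjusted p was at most 0.05 and grey where a gene was not tested. The Gabarapl2 column holds most dots (17), and the Ulk1 column none.

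Control levels differed between batches by more than most knockouts moved them. Group means of batch controls ran from 31.4 to 266 TPM for Gabarap, 3.79 to 49.6 TPM for Lamp2, 140 to 473 TPM for Lamp1, 145 to 417 TPM for Sqstm1 and 169 to 427 TPM for Gabarapl2. Batch 3 controls were highest for Gabarap, with PrE sums of 1197 to 1297 TPM. All knockouts were compared within their batch.

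Over 146 screen libraries, with batch means removed, the genes most like each member were found among 7353 with a mean of at least 5 TPM, as a description of libraries that share batches, controls and cell mixtures. Gabarap was most like Lrpap1 (Pearson r 0.76), Dab2 (0.73) and Flrt3 (0.72), and Ctsl was also among the nearest (0.69). Dab2 is an endocytic adaptor used as a PrE marker, and Lrpap1 is a chaperone of endocytic receptors. Sqstm1 and Lamp1 were each most like Ctsd, a lysosomal protease (0.72 and 0.72). Lamp2 and Map1lc3b were each most like Itm2b (0.69 and 0.70), and Gabarapl2 was most like Pramel7 (0.71). Among the members, Sqstm1 and Lamp1 (0.61), Gabarap and Lamp2 (0.59) and Gabarap and Map1lc3b (0.55) were alike, while Gabarap and Gabarapl1 were not (-0.02). Ulk1 lay below the minimum mean.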

How the data were processed

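Polyadenylated RNA of 200 libraries was measured. The submitters' processing notes name StringTie 2.2.1, HISAT2 2.2.1, Cufflinks and mm10, without their roles. The authors deposited TPM in 7 tables; without counts, depth and counting error are unknown. Columns were mapped to groups by their titles. The EB table has no gene column and was read in the row order shared by 3 tables of 25006 rows (correlation across genes 0.904 in that order, at most 0.11 shifted). A gene was tested if it reached 1 TPM in at least the number of libraries of the smaller group. Tests used limma 3.58.1 (R 4.3.3; eBayes with trend) on log2(TPM + 1), adjusted within each comparison, at a threshold of 0.05, with separate fits per table. Epi and PrE, EB days and screen batches shared a fit. Of PrE controls, replicates 1 and 2 were averaged (other pairs of that group from 0.975). The test was checked on simulated data. Equal replicate numbers deviated together in 1 of 52 comparisons, the Suz12 Eed Epi one (0.101 to 0.238); what the numbers mark is not given. The 10 members, 122 other pathway genes and marker lists were chosen with earlier results of these data known. Genes named beside the members were drawn from those called, at most 3 per list and comparison, with the smallest adjusted p. Alternatives were a pseudocount of 0.1, no filter, quantile normalization, fits of the compared groups alone, a replicate block, adjustment over all knockouts together, a 2-fold minimum and leaving out libraries. In embryo tables other than the screen, 1 library was left out at a time. In the screen, 1 replicate number was left out of all knockouts or of all controls at once. In EB, it was left out of all days of a genotype. Tables were read with the data.table package, version 1.17.8, and drawn with Python 3.11.15 and matplotlib 3.10.9.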

Additional observations from a re-analysis of the deposited data

Results flagged for a closer look

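The response to the Suz12 Eed double knockout differed between PrE and Epi, by an interaction term in limma, for Map1lc3b (-1.10), Sqstm1 (1.28) and Lamp1 (0.97, under 4 of 17 alternatives), where 19.1% of genes passed that test.

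The Zbtb17 knockout effect in embryoid bodies differed from that on day 0 by interaction terms, where 36.3%, 44.8% and 53.4% of genes passed on days 1, 2 and 3. On day 1 the differences were 0.76 for Tfeb, 0.38 for Map1lc3b, 0.28 for Gabarap, -0.31 for Lamp1 and -0.59 for Gabarapl1. The count of 5 members became 0 without knockout replicate 2, 3 without control replicate 1 or 2, and 2 with only the compared groups fitted. On day 2 they were 1.14 for Tfeb, 0.96 for Gabarapl2, 0.61 for Gabarap, 0.54 for Map1lc3b, 0.46 for Lamp2, -0.45 for Lamp1 and -0.96 for Gabarapl1. On day 3 they were 1.40 for Gabarapl2, 1.38 for Tfeb, 0.46 for Map1lc3b, -0.52 for Lamp1, -0.53 for Sqstm1 and -1.31 for Gabarapl1. With quantile normalization, the Lamp1 differences were 0.080 on day 1 and -0.049 on day 2 (adjusted p = 0.599 in limma), and neither passed; nor did Gabarap, Gabarapl1 and Tfeb on day 1 or Sqstm1 on day 3 (-0.22, adjusted p = 0.0751 in limma). The day 0 libraries stand apart (5970 to 6983 genes at 1 TPM or more against 12807 to 13512 later), and Tfeb, at 0.492 to 0.946 TPM there, lay under the minimum for a day 0 test. The part of that difference was not tested. No group had 4 to 10 libraries, so single libraries were not screened for lying apart.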

How the results depend on the processing

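Counts of member calls that moved by over 1.5 times were these. For GSK-J4 at E4.5, 1 call became 0 without the filter. For the double knockout in Epi, 0 became 1 with quantile normalization, and 0 to 1 with a library left out (Epi control replicate 2 gave 1). In PrE, 7 became 3 to 7, the lowest without PrE control replicate 1. The PrE minus Epi difference went from 3 to 1 to 3 (lowest without PrE control replicate 3), and dTAG from 4 to 1 to 3 (1 without control replicate 56, 2 without treated replicate 3). The EB difference of day 1 from day 0 had 5 calls, 3 with quantile normalization, 2 with only its groups fitted and 0 to 4 with a library left out (0 without knockout replicate 2). In the screen, 82 calls became 46 with a 2-fold minimum (32 higher, 14 lower) and 67 to 77 with 1 replicate number left out of all knockouts or all controls. They became 77 without batch 7, an alternative chosen after seeing the data. For EB, a library left out stands for 1 replicate number of a genotype on all days.

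With the replicate block, the screen had 91 calls, GSK-J4 at E5.0 had 6, the PrE minus Epi difference 2, the EB difference of day 1 4, and the double knockout in Epi 0. Of 183 calls in fits with a block, 179 were kept. dTAG and control libraries share no numbers, so no block was fitted there.

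Of 187 calls, a pseudocount of 0.1 kept 175, no filter kept 175 and quantile normalization 153. Quantile normalization turned wild-type changes against day 0 around: on day 1 Map1lc3a -0.78, Map1lc3b -1.10 and Tfeb -0.68. On day 2 it gave Map1lc3a -0.68, Map1lc3b -0.73, Ulk1 -0.074 and Tfeb -0.83, and on day 3 Map1lc3a -0.69, Map1lc3b -0.54, Ulk1 -0.063 and Tfeb -1.20. The Lamp1 difference of day 1 from day 0 became 0.080. Lamp2 in the Bend3 knockout of batch 7 became -0.39 without control replicate 2 and 2.71 without control replicate 1. The cause was not tested. No p-value here rests on read counts, so what depth limits is unknown.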
